A study of Mus musculus with 16 samples.

Results

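The 9 genes described here encode proteins of the tight junction, the belt of contacts that seals the space between neighbouring epithelial cells. They were chosen by name, as the entries of the deposited expression table for Cldn1, Cldn3, Cldn4, Cldn7, Cldn8, Cldn23, Ocln, Tjp1 and Cgn, and they are 9 of its 41411 genes. The RNA came from whole esophagus of C57BL/6 mice put through a model of eosinophilic esophagitis, an allergic inflammation of the esophagus. Animals were wild type (WT) or Il13ra1-/-, lacking a receptor chain that binds IL-13 and pairs with Il4ra. Each genotype received either OXA, an oxazolone hapten that provokes contact allergy, or vehicle alone, which gave WT vehicle, WT OXA, Il13ra1-/- vehicle and Il13ra1-/- OXA with 4 libraries each. Age, sex, dose, timing, pooling of animals and the deleted exon are not given in the sources used here. Nothing in the labels says how the libraries of a group were separated, so p-values measure only the spread between these libraries, which may be technical.

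Claudins are small membrane proteins that line up in strands between cells, and the mix of claudins in a strand sets which ions and molecules pass. Occludin (Ocln) is another membrane protein of the same strands. Inside the cell, ZO-1 (Tjp1) holds the strand proteins to a plaque that also contains cingulin (Cgn), which connects to actin, myosin and microtubules. In stratified squamous epithelium, the type that covers the mouse esophagus, functional tight junctions are placed in the upper living layers, beneath the cornified cells.

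For 7 of the 9 genes (not Cldn8 and Cldn23) a promoter entry was found in RefSeq (build GRCm38.p6). The 250 bases before the start, written 5′ to 3′ on the strand of the gene, are shown for Cgn, which was lower with OXA in WT, for Cldn1, which was higher, and for Cldn4, which did not pass the test. Capitals mark motif matches found by search on both strands, none of which overlap here. The Cgn sequence lies at chr3:94786483-94786732, minus strand, the Cldn1 sequence at chr16:26371840-26372089, minus strand, and the Cldn4 sequence at chr5:134946935-134947184, minus strand.
Cgn: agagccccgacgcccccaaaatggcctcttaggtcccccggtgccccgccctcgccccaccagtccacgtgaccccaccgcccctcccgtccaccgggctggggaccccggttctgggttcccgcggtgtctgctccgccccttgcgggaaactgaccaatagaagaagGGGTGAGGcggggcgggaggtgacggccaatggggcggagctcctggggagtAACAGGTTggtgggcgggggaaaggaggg
Cldn1: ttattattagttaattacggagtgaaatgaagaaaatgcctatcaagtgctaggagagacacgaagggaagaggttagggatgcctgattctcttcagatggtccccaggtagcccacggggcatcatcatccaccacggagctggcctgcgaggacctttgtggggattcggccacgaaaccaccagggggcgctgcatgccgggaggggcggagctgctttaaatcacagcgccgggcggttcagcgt
Cldn4: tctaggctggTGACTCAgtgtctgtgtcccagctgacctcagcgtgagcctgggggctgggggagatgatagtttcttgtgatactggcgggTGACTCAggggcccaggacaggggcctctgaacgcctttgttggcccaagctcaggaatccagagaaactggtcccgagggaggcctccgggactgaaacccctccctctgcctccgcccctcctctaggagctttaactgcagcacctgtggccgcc
The motifs searched were AACCNGTT for Grainyhead-like factors (GRHL), the palindromic STAT motif, TGANTCA for AP-1, GGGTGNGG for Krüppel-like factors (KLF) and TATAAA for the TATA box. The Cgn promoter held a GRHL match, AACAGGTT, 29 bases before the start, a motif present in 1.79% of the 32851 promoters of this length. It also held a KLF match, GGGTGAGG, 81 bases before the start, and that motif was in 14.9% of all promoters. The Cldn4 promoter held the AP-1 match TGACTCA at 240 and at 158 bases before the start, a motif in 6.75% of all promoters. The Cldn1 promoter held none of the 5 motifs in this window. Of the other genes, Cldn3, Tjp1 and 1 of 2 Cldn7 starts held a KLF match, 1 of 2 Ocln starts held a STAT match (TTCAGGTGAA, motif in 5.85% of all promoters), and no promoter held TATAAA, which 12.4% of all promoters did. The Cgn sequence was rich in G and C (70.4%, against a median of 52.4% over all promoters), and Cldn1 stood nearer the median at 55.6%. These matches describe letters only.

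Expression was measured by CEL-Seq, which reads 1 tag at the 3′ end of each transcript, so levels are not divided by transcript length, although 3′ ends can differ in how well they are captured. Values are normalized counts, that is, reads divided by 1 size factor per library. Depth moved with the groups (k and M below are the metric prefixes kilo and mega): reads per library were 5.61 M to 9.55 M in WT vehicle, 20.2 M to 27.3 M in WT OXA, 7.91 M to 16.5 M in Il13ra1-/- vehicle and 8.82 M to 15.2 M in Il13ra1-/- OXA. Il13ra1 itself read 134 to 226 in WT vehicle, 584 to 874 in WT OXA, 31.2 to 64.7 in Il13ra1-/- vehicle and 44.0 to 174 in Il13ra1-/- OXA; the tag may lie outside the deleted part, and the ranges of WT vehicle and Il13ra1-/- OXA overlapped. Replicate 4 of Il13ra1-/- OXA had reads on 23730 genes, more than any other library (16633 to 21763). Squamous markers were abundant in all libraries: 11 genes of the suprabasal and cornified layers summed to 1373 k to 2034 k in WT vehicle, 454 k to 738 k in WT OXA, 1516 k to 1807 k in Il13ra1-/- vehicle and 1355 k to 2840 k in Il13ra1-/- OXA. In WT, 8 of these 11 fell with OXA and 0 rose. Because the samples are bulk tissue, fewer cells of a type and less RNA per cell cannot be told apart.

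In WT esophagus without OXA the 9 genes ranged from abundant to almost undetected. Tjp1 was highest at 765 ± 219.6 normalized counts (SD, n = 4), and its lowest library (597) was above the highest library of every other gene. Cgn (339 ± 72.2), Cldn23 (312 ± 62.6), Ocln (277 ± 81.4) and Cldn4 (221 ± 48.6) followed. Every Cgn library was above every Cldn4 library, and the other pairs of these 4 overlapped, so the rest of their order is not resolved. Cldn8 (81.5 ± 36.0) lay below all 4 of them, and Cldn1 (42.8 ± 8.15) overlapped it at the edge. Cldn7 (2.20 ± 1.03) and Cldn3 (0.773 ± 1.55) were near the level of single reads. In Il13ra1-/- vehicle the first 5 genes were the same 5, with means from 714 for Tjp1 to 234 for Cldn4.

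After OXA the order in WT was different. Tjp1 (717 ± 50.0) and Ocln (365 ± 75.5) stood clear of the rest, with no overlap between them. Cldn4 (159 ± 46.0) overlapped Cgn (116 ± 15.1), and Cgn overlapped Cldn1 (97.7 ± 14.8). Cldn8 (52.4 ± 11.3) overlapped Cldn23 (36.0 ± 10.0), which overlapped Cldn7 (16.5 ± 13.8). Cldn23, whose range overlapped those of Cgn and Ocln in WT vehicle, was below Cldn1 in all 4 WT OXA libraries.

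**Figure D1:**
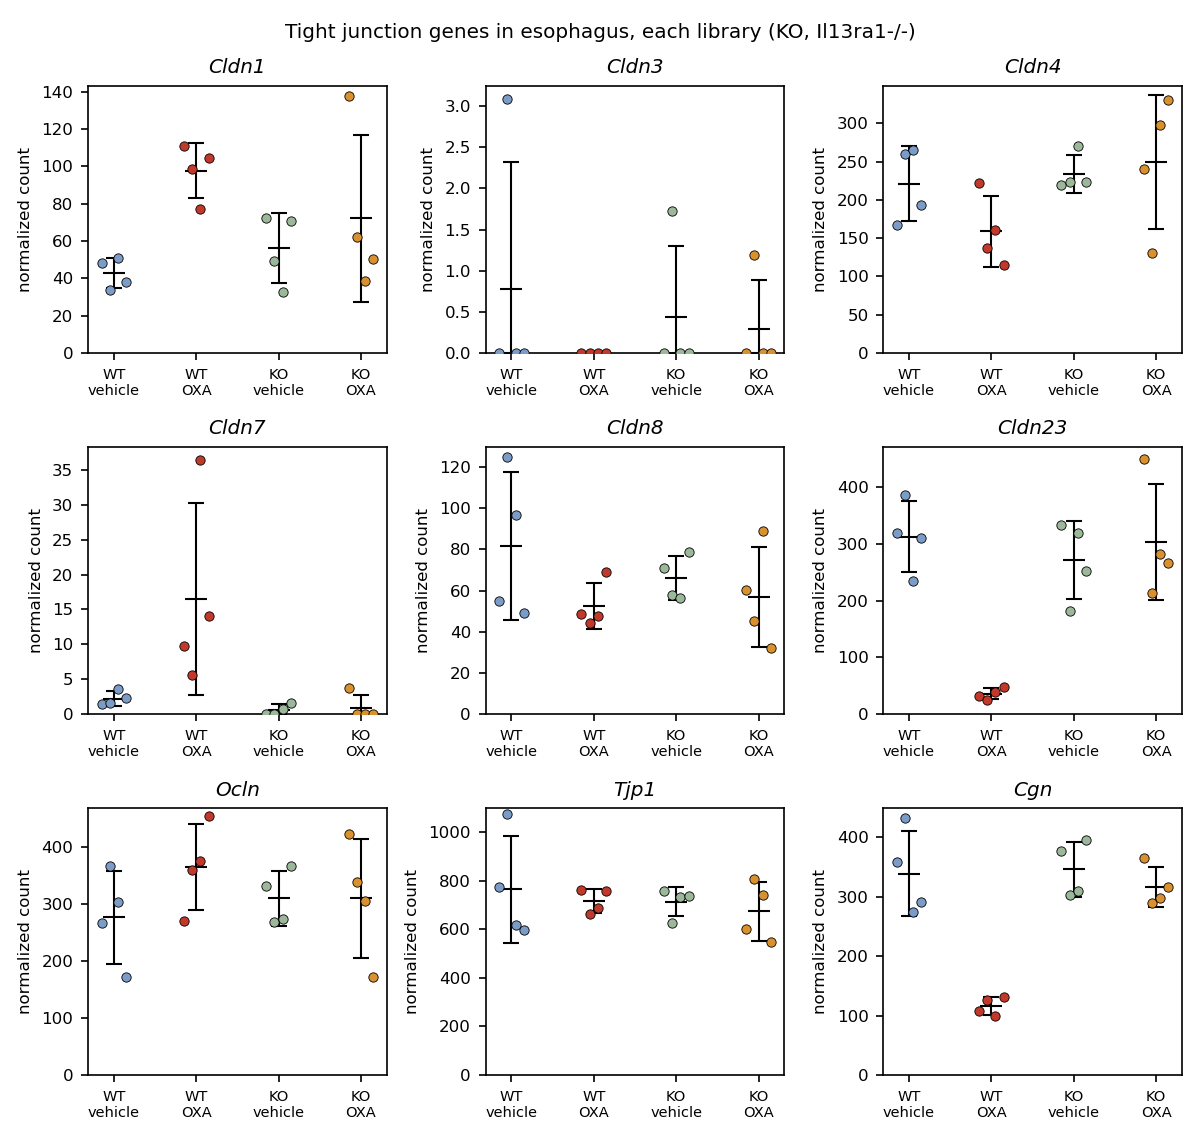
Normalized counts of the 9 tight junction genes in each of the 16 libraries, 1 panel per gene with its own linear axis; points are libraries, grouped as WT vehicle, WT OXA, Il13ra1-/- (KO) vehicle and Il13ra1-/- OXA, and bars show the mean ± SD (n = 4, cut at 0). Cldn23 and Cgn are lower in all 4 WT OXA libraries than in every other library (highest 48.1 and 132), Cldn7 is higher, and Tjp1 lies in the same range in all groups.

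Of the 9 genes, 8 passed the filter on low values (4 or more libraries had to reach a value of 5) and were tested. Cldn3 did not, and Cldn7 passed only through the 4 WT OXA libraries, where it was highest, so its calls in comparisons with that group are given as descriptions and support nothing. The question put to each gene was whether OXA changed it in WT, whether it did so without Il13ra1, and whether the 2 effects differed. In WT, among the 7 genes other than Cldn7, 1 rose (Cldn1), 2 fell (Cldn23 and Cgn) and 4 did not pass (limma on log2(value + 1), two-sided, Benjamini-Hochberg adjustment over 16748 genes, threshold 0.05). Over all genes tested, 34.0% passed in that comparison (18.0% higher and 16% lower), so a call alone says little about these genes. The median log2 fold change of the 8 tested, Cldn7 included, was -0.27, beside 0.10 over all genes. Cldn1, Cldn23, Cgn and Cldn7 had no overlap between the WT groups, a property of 34.2% of all genes.

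Cldn23 (ENSMUSG00000055976, chr8:35824712-35826559, minus strand), a claudin of differentiated epithelia, had the largest change of the 8 in WT. The WT vehicle libraries read 319, 386, 234 and 309.8, and the WT OXA libraries read 31.9, 24.6, 39.2 and 48.1. The Il13ra1-/- vehicle libraries read 332, 182, 319 and 253, and the Il13ra1-/- OXA libraries read 449, 213, 282 and 266. The WT OXA libraries were thus far below the other 12, none of which fell under 182, and the 2 Il13ra1-/- groups overlapped. Cldn23 fell by 3.10 ± 0.26 (SE) on the log2 scale with OXA in WT (limma, adjusted p = 3.71e-08), to 0.117 of the vehicle level. In Il13ra1-/- the log2 fold change was 0.14 ± 0.26 (adjusted p = 0.863), with a 95% interval from -0.40 to 0.68. The effects differed between genotypes by 3.24 ± 0.37 (limma interaction, adjusted p = 6.41e-06). Suprabasal markers fell in the same WT OXA libraries, as given above, and their part in this result was not tested.

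Cldn1 (ENSMUSG00000022512, chr16:26356642-26371841, minus strand) encodes the claudin known best for sealing the epidermis and is also present in the deeper living layers of squamous epithelia. WT vehicle libraries read 48.2, 34.0, 51.1 and 37.9, and WT OXA libraries read 111, 98.5, 76.9 and 104. Il13ra1-/- vehicle libraries read 72.1, 49.2, 32.7 and 70.6, and Il13ra1-/- OXA libraries read 138, 61.9, 38.4 and 50.4. Every WT OXA library was above every WT vehicle library, while the Il13ra1-/- OXA group held 1 high library, replicate 1, and 3 within the range of its own vehicle group. Cldn1 rose by 1.18 ± 0.35 on the log2 scale with OXA in WT (limma, adjusted p = 0.0126), a 2.26-fold change. In Il13ra1-/- the log2 fold change was 0.25 ± 0.35 (adjusted p = 0.805), and the difference between genotypes, -0.93 ± 0.49, did not pass (limma, adjusted p = 0.201). Without replicate 1 of Il13ra1-/- OXA that difference was -1.29 and passed (limma, adjusted p = 0.0432). A change that passed in 1 genotype only is therefore not shown here to depend on genotype with all libraries in.

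Cldn7 (ENSMUSG00000018569, chr11:69964779-69967885, plus strand), a claudin common in simple and glandular epithelia, was scarce. WT vehicle libraries read 1.38, 1.55, 3.65 and 2.23, which is 5 reads in all. WT OXA libraries read 9.80, 5.64, 36.5 and 14.0, or 157 reads. Il13ra1-/- vehicle libraries read 0, 0, 0.760 and 1.64, and those with OXA read 3.67, 0, 0 and 0, with 2 reads in each of the 2 groups. All 4 WT OXA libraries were above every other library. The normalized level over pooled reads was 8.17-fold higher with OXA in WT (95% exact interval 3.43 to 25.5, counting error only), and 4.63-fold (1.88 to 14.7) without WT OXA replicate 3, which supplied 93 of the reads. The log2 fold change in WT was 2.20 ± 0.76 on the log2(value + 1) scale, which understates low genes (limma, adjusted p = 0.0320, and 0.0239 with no filter beyond a value above 0 in 1 library). As the gene was tested because of its level in WT OXA, this p-value is no independent support for a higher level there. It was above the threshold without WT vehicle replicate 1, 2 or 4 (adjusted p = 0.0681, 0.0604 and 0.0559) and with all libraries thinned to the shallowest (adjusted p = 0.0695). In Il13ra1-/- the log2 fold change was 0.00 ± 0.76 (adjusted p = 0.9996), and the difference between genotypes did not pass (-2.20 ± 1.08, limma, adjusted p = 0.170).

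Markers of simple and glandular epithelium are given beside Cldn7. The 8 listed genes summed to 24.5 to 59.2 in WT vehicle, 34.0 to 89.3 in WT OXA, 40.3 to 54.2 in Il13ra1-/- vehicle and 23.5 to 73.3 in Il13ra1-/- OXA, and Pip was at 0 in every library. Keratins of simple epithelium had no higher mean in WT OXA: Krt8 averaged 13.2 ± 9.82 in WT vehicle and 4.90 ± 4.84 in WT OXA, and Krt18 averaged 8.03 ± 7.17 and 2.27 ± 0.564. Within WT OXA, replicate 3, which supplied 93 of the Cldn7 reads, read 12.2 for Krt8, where the others read 2.18 to 2.70. That library was also highest of its group in Krt19 (5.89, others 0.54 to 3.99), but not in Krt18 (2.35) or Krt7 (1.57). In the whole list, 1 of the 4 genes tested rose in WT (Kit, from 18.3 ± 5.77 to 52.2 ± 22.1) and 0 fell. Most of the list's mean sum in WT OXA (65.9) was Kit, a gene not confined to epithelium. Neither that call nor the sum there can therefore be read as epithelium alone. A separate list of 11 glandular stomach genes summed to 69.1 to 1996 in WT vehicle and 82.8 to 940 in WT OXA. In Il13ra1-/- it summed to 72.1 to 723 with vehicle and 140 to 255 with OXA. Tff1 alone averaged 765 ± 694 in WT vehicle. Of its 6 tested genes 0 passed with OXA in WT. The part of the markers of either list in the Cldn7 values was not tested.

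Cldn4 (ENSMUSG00000047501, chr5:134945119-134946934, minus strand), a claudin of the upper squamous layers, was the second claudin of the 6 by level in WT vehicle. WT vehicle libraries read 167, 259.6, 265 and 194, and WT OXA libraries read 222, 137, 161 and 116. Il13ra1-/- vehicle libraries read 219, 223, 270.1 and 223, and Il13ra1-/- OXA libraries read 240.2, 131, 297 and 331. The ranges overlapped in both genotypes. The log2 fold change with OXA was -0.49 ± 0.26 in WT (limma, adjusted p = 0.154, 95% interval -1.03 to 0.05) and 0.02 ± 0.26 in Il13ra1-/- (adjusted p = 0.982, interval -0.52 to 0.56).

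Cldn8 (ENSMUSG00000050520, chr16:88560828-88563183, minus strand), a claudin best known from the distal nephron and colon, read 55.1, 125, 96.7 and 49.0 in WT vehicle and 48.6, 44.1, 47.9 and 69.1 in WT OXA. It read 71.2, 57.8, 56.3 and 78.8 in Il13ra1-/- vehicle and 60.5, 45.3, 89.1 and 32.3 in Il13ra1-/- OXA. All 4 groups overlapped. The log2 fold change was -0.54 ± 0.34 in WT (limma, adjusted p = 0.226, 95% interval -1.24 to 0.16) and -0.30 ± 0.34 in Il13ra1-/- (adjusted p = 0.745).

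Cldn3 (ENSMUSG00000070473, chr5:134986214-134987472, plus strand), a sealing claudin of simple epithelia, was all but missing. It had 5 reads in 16 libraries: 2 in WT vehicle, 0 in WT OXA, 2 in Il13ra1-/- vehicle and 1 in Il13ra1-/- OXA. The 93.2 M reads of WT OXA at 0 allow a level of up to 0.0322 reads per M reads (3 reads), a limit for counting error only. The annotation places the antisense gene Wbscr25 over the end of Cldn3. As the labels do not say whether strand was used in counting, even these few reads cannot be placed with certainty. No fold change is given for it.

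The mixture of the 6 claudins was different in WT after OXA. These 6 are not all the claudins of the tissue. Cldn17, given below, averaged 1065 in WT vehicle and 938 in WT OXA, above the mean sum of the 6 (661 and 361). In WT vehicle, Cldn23 made up 47.5% ± 8.15 of their summed normalized counts, Cldn4 33.4% ± 5.26, Cldn8 12.0% ± 3.71, Cldn1 6.65% ± 1.81 and Cldn7 0.341% ± 0.167. In WT OXA, Cldn4 led with 43.5% ± 8.03, followed by Cldn1 with 27.2% ± 4.59, Cldn8 with 14.7% ± 3.54, Cldn23 with 10.0% ± 2.87 and Cldn7 with 4.56% ± 3.81. Cldn23 was the first or second of the 6 in all 4 WT vehicle libraries and reached at most 13.7% in WT OXA. Cldn1 made up at most 8.16% of the sum in WT vehicle and at least 21.3% in WT OXA. In Il13ra1-/- the mean shares with OXA of Cldn23 (44.1% ± 5.52), Cldn4 (36.7% ± 10.5) and Cldn1 (10.5% ± 4.82) lay within the SD of those with vehicle (42.6% ± 5.85, 37.6% ± 5.12 and 9.01% ± 2.88). That of Cldn8 did not (8.54% ± 3.47 with OXA, 10.6% ± 1.80 with vehicle). Single libraries with OXA also left the vehicle range, as for Cldn4 (27.0% to 48.7%, beside 31.6% to 43.4%).

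**Figure D2:**
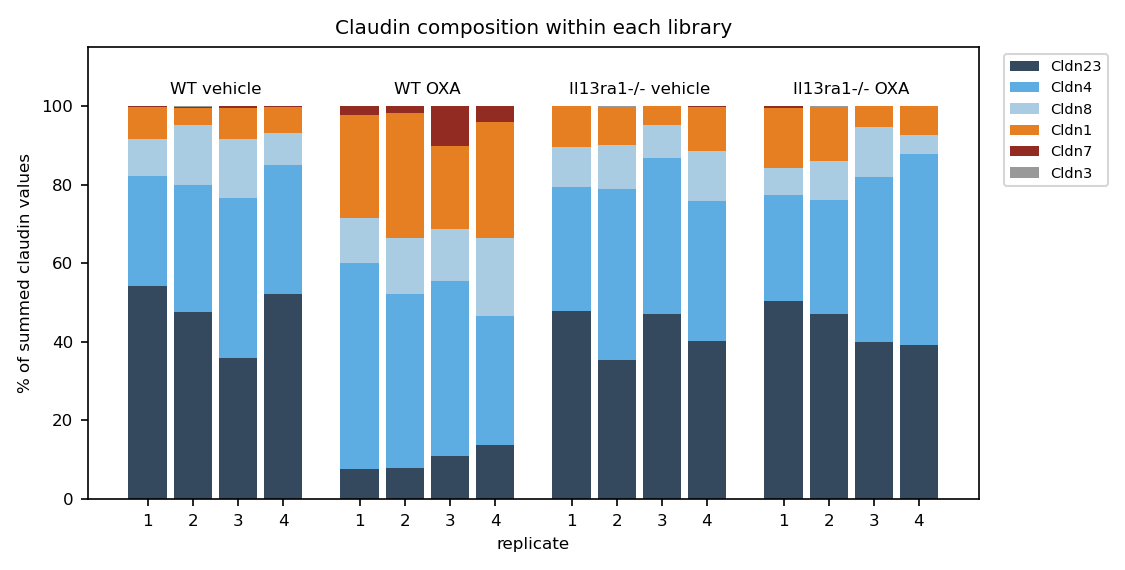
Share (%) of each of 6 claudins in their summed normalized counts, 1 stacked bar per library, grouped as WT vehicle, WT OXA, Il13ra1-/- vehicle and Il13ra1-/- OXA. In the 4 WT OXA bars Cldn23 shrinks to between 7.54% and 13.7% and Cldn1 widens to between 21.3% and 31.8%.

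The summed level of the 6 claudins ran from 591 to 809.8 in WT vehicle, 309.9 to 424 in WT OXA, 513 to 695 in Il13ra1-/- vehicle and 452 to 891 in Il13ra1-/- OXA. The WT OXA libraries were below all other libraries. The ratio of Cldn23 to Cldn4, which does not depend on how libraries are scaled, was 0.883 to 1.92 in WT vehicle and 0.144 to 0.416 in WT OXA. In Il13ra1-/- it was 0.818 to 1.52 with vehicle and 0.802 to 1.87 with OXA. These shares and ratios repeat the values of single genes and were given no test of their own.

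Ocln (ENSMUSG00000021638, chr13:100496507-100552718, minus strand) read 266, 366, 303 and 172 in WT vehicle and 270.0, 359, 375 and 454 in WT OXA. It read 332, 268, 273 and 366 in Il13ra1-/- vehicle and 424, 339, 305 and 172 in Il13ra1-/- OXA. The groups overlapped, with the WT OXA libraries toward the upper end. The log2 fold change with OXA was 0.43 ± 0.26 in WT (limma, adjusted p = 0.213, 95% interval -0.11 to 0.96) and -0.06 ± 0.26 in Il13ra1-/- (adjusted p = 0.944, interval -0.60 to 0.48). With libraries set to equal totals, a scaling that raised the median of all genes in this comparison by 0.31, the WT value was 0.75 and passed (limma, adjusted p = 0.0145).

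The plaque proteins differed from each other. Tjp1 (ENSMUSG00000030516, chr7:65296165-65527781, minus strand), the ZO-1 scaffold, read 772, 1072, 617 and 597 in WT vehicle and 761, 661, 689 and 758 in WT OXA. It read 758, 624, 734 and 739 in Il13ra1-/- vehicle and 601, 808, 739 and 546 in Il13ra1-/- OXA. WT vehicle replicate 2 was the highest library, and the other 15 lay between 546 and 808 in all groups alike. The log2 fold change was -0.05 ± 0.17 in WT (limma, adjusted p = 0.842, 95% interval -0.42 to 0.31) and -0.10 ± 0.17 in Il13ra1-/- (adjusted p = 0.856, interval -0.46 to 0.27). The WT interval does not reach the change of Cgn given next.

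Cgn (ENSMUSG00000068876, chr3:94760069-94786492, minus strand), the cingulin gene, read 358, 433, 274 and 292 in WT vehicle and 108, 126, 99.3 and 132 in WT OXA. It read 376, 303, 309.7 and 396 in Il13ra1-/- vehicle and 365, 289, 297 and 316 in Il13ra1-/- OXA. All 4 WT OXA libraries were below the other 12, which shared a narrow range from 274 to 433. Cgn fell by 1.52 ± 0.17 on the log2 scale with OXA in WT (limma, adjusted p = 2.35e-06), to 0.348 of the vehicle level. In Il13ra1-/- the log2 fold change was -0.12 ± 0.17 (adjusted p = 0.807, 95% interval -0.49 to 0.24), and the difference between genotypes was 1.40 ± 0.25 (limma, adjusted p = 0.000705). The fall of 8 of the 11 suprabasal markers in the same libraries stands beside this result too, and its part was not tested. The ratio of Cgn to Tjp1 within a library was 0.403 to 0.489 in WT vehicle and 0.142 to 0.190 in WT OXA. It was 0.422 to 0.536 in Il13ra1-/- vehicle and 0.358 to 0.607 in Il13ra1-/- OXA.

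In Il13ra1-/- esophagus 0 of the 8 tested genes passed with OXA, where 1.90% of all genes did (1.81% higher and 0.0896% lower), and 0 had groups without overlap, as 6.87% of all genes had. Their adjusted p-values ran from 0.745 to 0.9996, 0 had an unadjusted p under 0.05, and edgeR and DESeq2 on the recovered reads also called 0. Cldn7, with 2 reads in each Il13ra1-/- group, could hardly have passed and adds nothing to that count. The WT and Il13ra1-/- effects share no library, so they can be set side by side. In the test of the difference itself, 2 of the 8 passed (Cldn23 and Cgn), both with a larger value in Il13ra1-/-, where 17.8% of all genes passed (10.1% with a higher and 7.67% with a lower value). For the other 6 the difference did not pass, with adjusted p from 0.170 for Cldn7 to 0.931 for Tjp1. The Cldn7 difference again rests on the WT OXA libraries through which the gene was tested, and is given as a description.

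**Figure D3:**
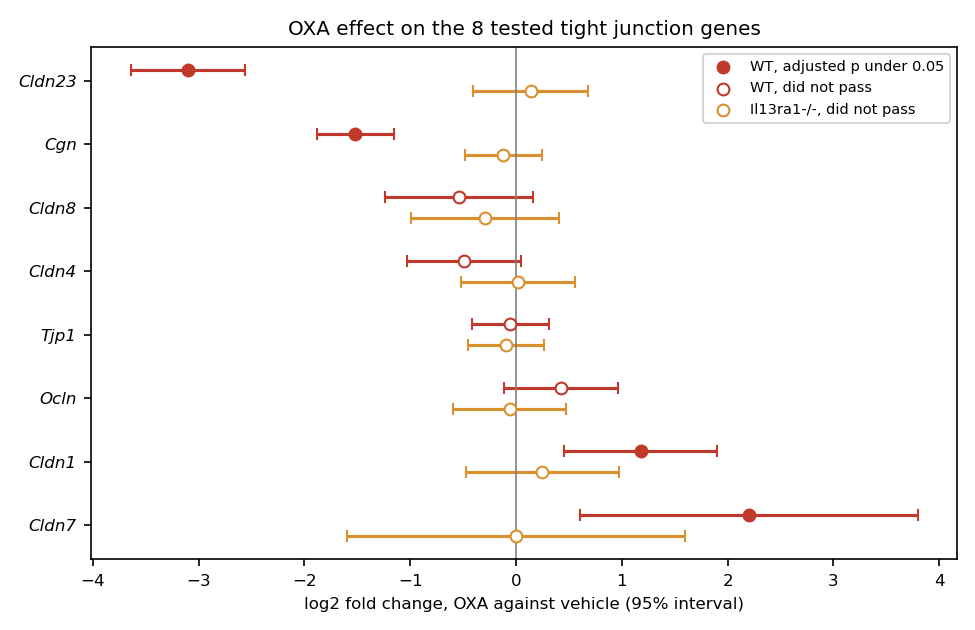
Log2 fold change of OXA against vehicle (x axis, on the log2(value + 1) scale) for the 8 tested tight junction genes, in WT (red) and Il13ra1-/- (orange); points are limma estimates from 4 against 4 libraries, lines are 95% intervals, and filled points passed at an adjusted p under 0.05. Cldn23 (-3.10) and Cgn (-1.52) lie left of 0 and Cldn1 (1.18) and Cldn7 (2.20) right of it in WT, and all 8 Il13ra1-/- intervals include 0. Cldn7 was tested only through the WT OXA libraries, so its filled point is a description.

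Without OXA no difference between genotypes was detected in these genes. Comparing Il13ra1-/- with WT under vehicle, 0 of 8 passed, beside 0.0597% of all genes (0.0358% higher and 0.0239% lower), with adjusted p from 0.678 (Cldn7) to 0.960 (Cgn). None of the 8 had groups without overlap (5.35% of all genes), 0 had an unadjusted p under 0.05, and edgeR and DESeq2 called 0. The 95% intervals were narrowest for Tjp1, from -0.43 to 0.30, and Cgn, from -0.32 to 0.41, and widest for Cldn7, from -2.67 to 0.52. With 5 reads in WT vehicle and 2 in Il13ra1-/- vehicle, Cldn7 could hardly have passed and adds nothing to the count.

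Under OXA, 2 of the 7 genes other than Cldn7 passed between genotypes, where 27.6% of all genes did (14.6% higher and 12.9% lower). These 2 and Cldn7 had no overlap (29.3% of all genes). Cldn23 was higher in Il13ra1-/- by 3.02 ± 0.26 on the log2 scale (limma, adjusted p = 5.16e-08), and Cgn by 1.44 ± 0.17 (limma, adjusted p = 4.80e-06). The Cldn7 value was -3.27 ± 0.76 (limma, adjusted p = 0.00312), again tested only through the WT OXA libraries and given as a description. Cldn4 (0.61 ± 0.26, adjusted p = 0.0874) and Cldn1 (-0.59 ± 0.35, adjusted p = 0.221) did not pass. On the recovered reads DESeq2 called Cldn4 as well (0.65, adjusted p = 0.0451), and edgeR did not (adjusted p = 0.0664). The Cldn4 value was 0.89 without Il13ra1-/- OXA replicate 2 (limma, adjusted p = 0.00664) and 0.78 without WT OXA replicate 1 (limma, adjusted p = 0.0406), and both passed. Without Il13ra1-/- OXA replicate 1 the Cldn1 value was -0.96 and passed (limma, adjusted p = 0.0285). With equal totals Cldn1, Ocln (-0.69, adjusted p = 0.0228) and Tjp1 (-0.52, adjusted p = 0.0298) passed as lower in Il13ra1-/-. This comparison uses the same WT OXA libraries as the WT effect and is not separate evidence.

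The genes most like each member were taken as those with the smallest root mean square difference between log2 values centred over the 16 libraries, among 12328 tested genes with a mean of at least 20. For Cldn23, whose own root mean square around its mean was 1.35, these were Lce3a, a late cornified envelope gene (0.352), Paqr5 (0.380) and Casp14, the caspase of cornifying keratinocytes (0.390). For Cgn (own value 0.68) they were Clic3 (0.172), Sh3gl1 (0.177) and Sptlc3, a subunit of serine palmitoyltransferase (0.191). For Cldn1 (0.61) they were Shc1 (0.324), Top3a (0.350) and Prcp (0.360). For Cldn7 (1.53) they were the epithelial transcription factor Elf3 (0.741), Tent5a (0.791) and Tmprss11b (0.791). The Cgn matches were much closer, relative to its own variation, than those of Cldn7. For the 4 genes that did not pass in WT the nearest genes were Pcdh1 for Cldn4 (0.247, own value 0.43) and Dcn for Cldn8 (0.289, own value 0.47). Serinc5 was nearest to Ocln (0.200, own value 0.38) and Sertad2 to Tjp1 (0.143, own value 0.22). Tjp1, with the smallest distance, also varied least. These are descriptions over 16 libraries that share groups and depth, with no test.

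Among other genes of the junction, in 8 lists by role, 71 of 81 listed genes were tested. With OXA in WT 9 rose and 16 fell, and 46 did not pass, a share close to the 34.0% of all genes that passed (18.0% higher and 16% lower). The median log2 fold change was 0.24, beside 0.10 over all genes. The split depends on scaling: with libraries set to equal totals 32 rose and 12 fell. Over all genes 6616 of 16832 then passed (5121 higher and 1495 lower), and the share of calls that were higher went from 53.0% to 77.3%. The likeness to the share of all genes therefore does not hold under that scaling. In the main test, the WT counts of each of the 8 lists, given below, also stand beside 18.0% higher and 16% lower. Such a count alone says little about its list. In Il13ra1-/- 0 of the 71 passed with OXA (at an unadjusted p under 0.05, 1 was higher and 9 lower; edgeR and DESeq2 called 0), with a median of -0.10 beside -0.01. In the test of the difference 14 of the 71 passed, 9 with a larger and 5 with a smaller value in Il13ra1-/-, beside 17.8% of all genes (10.1% and 7.67%). Under equal totals these were 3 and 27, where 4351 of 16832 genes passed (884 larger and 3467 smaller).

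**Figure D4:**
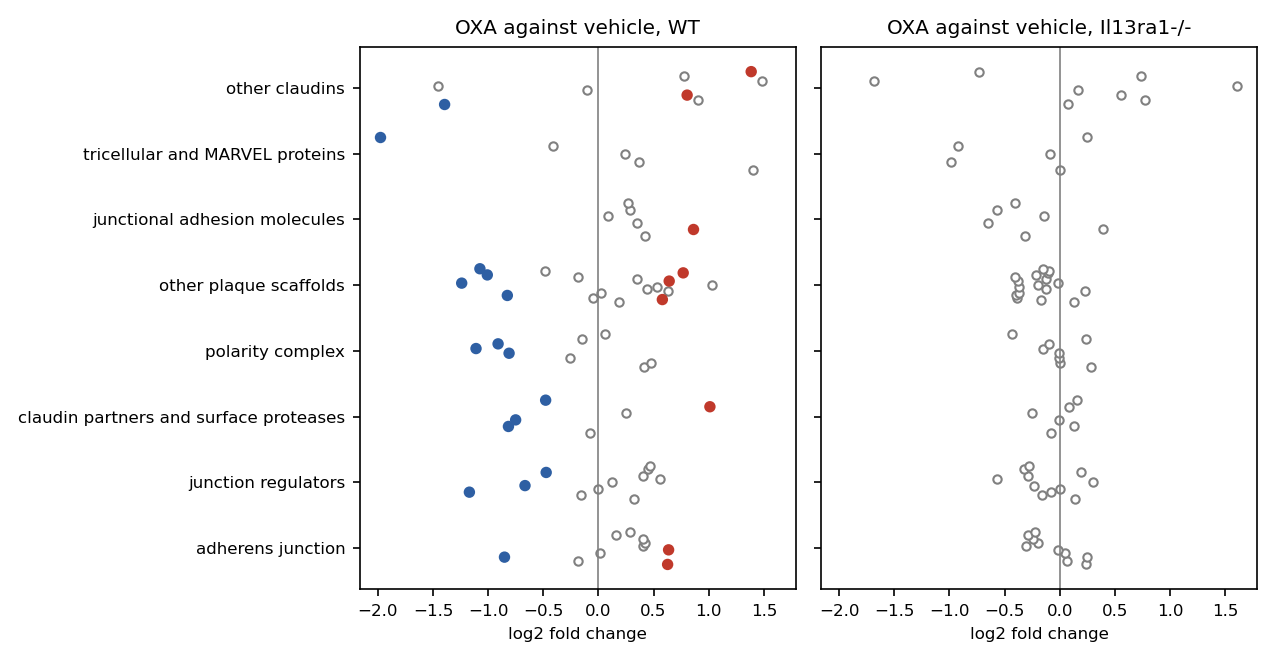
Log2 fold change of OXA against vehicle (x axis) for each tested gene of 8 lists of junction genes (y axis), in WT and in Il13ra1-/- panels; each point is 1 gene, filled red where it passed and was higher and filled blue where it passed and was lower (limma, adjusted p under 0.05). Filled points of both colours appear in the WT panel (9 and 16 genes) and 0 in the Il13ra1-/- panel.

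Among 17 other claudins, 8 could be tested, and in WT 2 rose and 1 fell. Cldn5, the claudin of blood vessel endothelium, rose from 28.7 ± 8.39 to 76.2 ± 19.4 (log2 fold change 1.38 ± 0.33, limma, adjusted p = 0.00307), and Cldn12 rose from 112 ± 29.0 to 195 ± 46.7 (0.80 ± 0.25, adjusted p = 0.0183). Cldn10, an ion-channel claudin, fell from 109 ± 33.5 to 43.7 ± 22.6 (-1.40 ± 0.43, adjusted p = 0.0158). Leaving out WT OXA replicate 1 ended the calls of Cldn12 (adjusted p = 0.0713) and Cldn10 (0.0614), and leaving out WT vehicle replicate 1 ended that of Cldn12 (0.0680). Cldn17, a neighbour of Cldn8 on chromosome 16 at a distance of 53850 bases, was the most abundant claudin of either list, at 1065 ± 434 in WT vehicle, 938 ± 135 in WT OXA, 1197 ± 229 in Il13ra1-/- vehicle and 1384 ± 518 in Il13ra1-/- OXA, and its WT fold change did not pass (-0.10 ± 0.25, limma, adjusted p = 0.785). Cldn6, Cldn13, Cldn20 and Cldn24 were at 0 in all 16 libraries.

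Genes listed as markers of other cell types moved beside 2 of these claudins. Beside Cldn5, 6 of 7 endothelial markers rose in WT; their sum was 923 to 1098 in WT vehicle, 1485 to 2619.5 in WT OXA, 773 to 1164 in Il13ra1-/- vehicle and 487 to 985 in Il13ra1-/- OXA, and none was at 0. Beside Cldn10, 2 of 4 tested airway markers fell in WT; the 9 listed genes summed to 35.8 k to 54.4 k in WT vehicle, 0.625 k to 1.06 k in WT OXA, 25.5 k to 34.1 k in Il13ra1-/- vehicle and 17.2 k to 32.9 k in Il13ra1-/- OXA, with Muc5b at 0 throughout. Nearly all of that sum was Cyp2f2, a cytochrome P450 abundant in airway club cells, which averaged 41264 ± 8658 in WT vehicle and 848 ± 214 in WT OXA. The other listed genes were low beside it, so the sum describes Cyp2f2 and cannot be read as an amount of airway tissue. The other gene that fell, the club cell secretory gene Scgb1a1, averaged 92.0 ± 55.5 and 10.9 ± 9.31. Sftpc (4.95 in WT vehicle, 9.07 in WT OXA) and Bpifb1 (4.79, 7.61) had higher means with OXA and did not pass. Of the untested genes, Scgb3a1 (1.26, 1.72) and Foxj1, which marks ciliated cells (0, 0.740), had higher means with OXA, and Scgb3a2 (2.405, 0.5425) a lower one. Other lists also moved in WT: 8 of 11 suprabasal, 4 of 7 skeletal muscle and 2 of 6 smooth muscle markers fell and 0 rose. Of 7 squamous basal markers 3 fell and 2 rose, and 7 of 9 leukocyte markers rose. The part of any of these markers in the claudin results was not tested.

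Of 5 tricellular and MARVEL genes, 0 rose and 1 fell in WT. Marveld3, a relative of occludin, fell from 35.9 ± 8.67 to 8.23 ± 1.61 (log2 fold change -1.98 ± 0.39, limma, adjusted p = 0.000614), and the effect differed between genotypes by 2.23 ± 0.55 (limma, adjusted p = 0.00828). That difference did not pass with libraries thinned to the shallowest (adjusted p = 0.0596). Of 6 junctional adhesion genes tested, 1 rose and 0 fell: Cxadr, the coxsackievirus and adenovirus receptor (0.85 ± 0.27, limma, adjusted p = 0.0194), a call that ended when WT vehicle replicate 4 (0.0772), WT OXA replicate 3 (0.0617) or WT OXA replicate 4 (0.0625) was left out.

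Of 17 other plaque scaffolds, 3 were higher and 4 lower in WT, beside 18.0% higher and 16% lower over all genes. Amotl2, an angiomotin family member, fell by 0.83 ± 0.13 on the log2 scale (limma, adjusted p = 0.000107). Ybx3, a nucleic acid binding partner of ZO-1, fell by 1.07 ± 0.20 (limma, adjusted p = 0.000416), and Magi3, a multi-PDZ scaffold, by 1.24 ± 0.25 (limma, adjusted p = 0.000793). Of 8 polarity complex genes 0 rose and 3 fell, all of them PAR6 adaptors: Pard6g (-0.91 ± 0.13, limma, adjusted p = 3.75e-05), Pard6b (-1.11 ± 0.23, adjusted p = 0.00104) and Pard6a (-0.81 ± 0.26, adjusted p = 0.0201). The Pard6a call ended when replicate 3 of either WT group was left out (vehicle 0.0534, OXA 0.0609) and with equal totals (0.137).

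Of the surface proteases that act on junctions, 1 rose and 1 fell in WT, and an inhibitor fell. St14 (matriptase) rose from 239.6 ± 82.1 to 465 ± 62.9 (log2 fold change 1.01 ± 0.21, limma, adjusted p = 0.00114). Prss8 (prostasin) fell from 257 ± 49.9 to 145 ± 21.6 (-0.82 ± 0.20, adjusted p = 0.00348), and Spint1, the inhibitor of matriptase, fell from 552 ± 43.9 to 329 ± 44.0 (-0.75 ± 0.14, adjusted p = 0.000443). In that list 1 of 6 rose and 3 fell. Of 11 regulators 0 rose and 3 fell. Grhl3, a transcription factor of barrier formation that is also among the suprabasal markers, fell from 2345 ± 67.0 to 1049 ± 143 (-1.17 ± 0.15, limma, adjusted p = 8.51e-06). Rhoa (-0.47 ± 0.16, adjusted p = 0.0299) and Mylk, myosin light chain kinase (-0.67 ± 0.24, adjusted p = 0.0369), passed narrowly. The Rhoa call ended when replicate 4 of the WT vehicle group or 1, 2 or 3 of the WT OXA group was left out (0.0575 to 0.0869), and that of Mylk when WT vehicle 3 or 4 or WT OXA 1, 3 or 4 was (0.0802 to 0.145). With equal totals neither passed (0.419 and 0.227). Beside Mylk, which smooth muscle also expresses, 2 of 6 smooth muscle markers fell in WT and 0 rose, with a median log2 fold change of -0.63. Their part in the Mylk value was not tested.

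In the adherens junction, which lies beneath the tight junction, 2 of 10 genes rose and 1 fell in WT. Cdh1 (E-cadherin) rose from 4136 ± 174 to 6404 ± 586 (log2 fold change 0.63 ± 0.13, limma, adjusted p = 0.000914) and Jup (plakoglobin) from 1410 ± 254 to 2182 ± 297 (0.64 ± 0.16, adjusted p = 0.00469). Ctnnb1 (β-catenin) fell from 6598 ± 743 to 3667 ± 548 (-0.85 ± 0.17, adjusted p = 0.000767).

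Genotype differences of the OXA effect in these lists were led by Grhl3 (1.09 ± 0.21, limma, adjusted p = 0.00166), Ctnnb1 (1.10 ± 0.24, adjusted p = 0.00394), Cldn5 (-2.11 ± 0.47, adjusted p = 0.00418) and Pard6g (0.81 ± 0.19, adjusted p = 0.00591), the last of which did not pass with equal totals (0.118). Spint1 (0.75 ± 0.20, adjusted p = 0.0139) did not pass with equal totals either (0.251). Genes that passed nearer the threshold included Magi3, Mpdz, Prss8, Ybx3, Ildr2, St14 and Pard6b, with adjusted p from 0.0212 to 0.0486. Of these, Magi3 was lost without Il13ra1-/- OXA replicate 3 (0.0507), Mpdz without WT OXA replicate 1 or Il13ra1-/- vehicle replicate 1 (0.0516 and 0.0525) and Prss8 without WT OXA replicate 1 (0.0553). Ildr2 was lost without WT vehicle 2 or 3, WT OXA 1 or 4, Il13ra1-/- vehicle 1, 2 or 4 or Il13ra1-/- OXA 1 (up to 0.0780). St14 was lost without WT vehicle 1 or 3, WT OXA 1, 3 or 4, Il13ra1-/- vehicle 1, 2 or 3 or Il13ra1-/- OXA 2 or 3 (up to 0.0764). Pard6b was lost without any 1 library other than WT vehicle 4, WT OXA 4, Il13ra1-/- vehicle 3 or 4 or Il13ra1-/- OXA 2 (up to 0.110). With equal totals Magi3 (0.123), Prss8 (0.132) and Pard6b (0.259) did not pass. Ybx3 was not put through the alternatives in this comparison, so its call is not shown to hold.

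Between genotypes under vehicle 0 of the 71 passed (at an unadjusted p under 0.05, 2 were higher and 1 lower; edgeR and DESeq2 called 0). Under OXA 29 passed, 12 higher and 17 lower in Il13ra1-/-, beside 27.6% of all genes (14.6% and 12.9%). With equal totals these were 7 and 38, and 19.9% of the calls over all genes were then higher. Cldn5 was lower by 2.24 ± 0.33 (log2 fold change -2.24, limma, adjusted p = 4.53e-05), as were the adhesion genes F11r, which encodes JAM-A (-0.54 ± 0.13, adjusted p = 0.00351), Jam2 (-0.90 ± 0.23, adjusted p = 0.00552) and Esam (-1.07 ± 0.28, adjusted p = 0.00736), beside 7 of 7 endothelial markers that were also lower. Lsr, the angulin that recruits tricellulin, was lower (-0.64 ± 0.16, adjusted p = 0.00528), and so were the adherens genes Jup (-0.89 ± 0.16, adjusted p = 0.000362) and Nectin2 (-0.88 ± 0.17, adjusted p = 0.000507). Grhl3 (0.94 ± 0.15, adjusted p = 0.000101), Spint1 (0.87 ± 0.14, adjusted p = 0.000132), Magi3 (1.38 ± 0.25, adjusted p = 0.000347) and Ctnnb1 (0.87 ± 0.17, adjusted p = 0.000732) were higher, beside 8 of 11 suprabasal markers that were also higher. Grhl3 is itself among those 8. The part of these cell type markers in the differences was not tested.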

How the data were processed

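CEL-Seq libraries from 16 esophagus samples, 4 in each of 4 groups, were sequenced on a NextSeq550, per the labels' protocols. Per the submitters' processing notes, the authors used FastQC 0.11.5, Trim Galore, cutadapt 1.10, TopHat2 2.1.0, Bowtie2 2.2.6, build GRCm38, HTSeq 0.6.1 and DESeq2 1.28.0. Annotation release, strand and molecular identifiers are not given in the sources used here. Values deposited by the authors are a signal: each gene's reads divided by a size factor of its library. In every library 100% of them were whole reads to within 0.1 of a read, which gave the depth (5.61 M to 27.3 M reads). Columns of unmapped samples numbered 0. Coordinates are those of the deposited table, and all 9 were identical in GENCODE M21.

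The main test was limma 3.58.1 (R 4.3.3) applied to log2(value + 1) of all 16 libraries with 1 mean for each group and trended eBayes. Two-sided p-values were adjusted by Benjamini-Hochberg over the 16748 genes that reached 5 in 4 or more libraries, and the threshold was 0.05. Every adjusted p is from it unless another tool is named. Fold changes on this scale understate the change of low genes. Errors are SD for levels and SE for fold changes. The 5 comparisons were OXA against vehicle in each genotype, their difference (the interaction) and Il13ra1-/- against WT under each treatment. The procedure was tested on simulated data.

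Alternatives were pseudocounts of 0.5 and 5, no filter, a filter of 20, equal library totals, quantile normalization, only the groups compared, no trend, array weights, edgeR 4.0.16 and DESeq2 1.42.0 on recovered reads, reads thinned to 5.61 M, and each library left out. Named were all 9 members, up to 3 genes with the smallest p among those that passed in each list and comparison (otherwise the list's most abundant gene), and the 3 genes most like each member. The members and lists were chosen with earlier results of these data known. The list counts cover every listed gene tested, and 1 result is not reported here.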

Additional observations from a re-analysis of the deposited data

Results flagged for a closer look

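The OXA effect differed between genotypes for Cldn23 (3.24 on the log2 scale, Il13ra1-/- minus WT) and Cgn (1.40), both by limma's interaction test, as given above. A library far from the other 3 of its group was looked for in 35 groups, of which chance gives about 1 in 20. Cldn4 read 270.1 in 1 Il13ra1-/- vehicle library and 219 to 223 in the other 3. Cldn7 read 3.67 in 1 Il13ra1-/- OXA library and 0 in the others. Cldn3 had reads in 1 library of a group and 0 in the others in WT vehicle (3.09), Il13ra1-/- vehicle (1.73) and Il13ra1-/- OXA (1.19); these last 4 values rest on 1 or 2 reads each.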

How the results depend on the processing

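Over 5 comparisons and 28 alternatives, fold changes of the tight junction genes kept their side of the threshold and, where they passed, their direction in 1070 instances, lost the call in 6, gained one in 11 and reversed a call in 0. The WT calls of Cldn23 (-3.25 to -2.79), Cgn (-1.62 to -1.20) and Cldn1 (1.05 to 1.50, adjusted p up to 0.0362) held in all 28. That of Cldn7 was lost with a pseudocount of 0.5 (adjusted p = 0.0644) and quantile normalization (0.0909) besides the cases above, and Cldn7 could not be tested with a filter of 20 or without any 1 WT OXA library. Equal totals moved the median of all genes by 0.31 in WT, -0.12 in Il13ra1-/-, -0.42 in the interaction and -0.39 between genotypes under OXA, and quantile normalization by -0.12 in WT. With equal totals 4 members passed in the interaction in place of 2 (Cldn1 -1.37, Ocln -0.93), and over all genes 4351 passed in place of 2982. Between genotypes under OXA 6 passed in place of 3, and both counts include Cldn7. Tjp1 in WT was 0.27 with equal totals, still not passing. The share of calls that were higher went from 56.9% to 20.4% in the interaction, from 53.1% to 19.9% between genotypes under OXA and from 60% to 80% under vehicle.

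Calls over all genes in Il13ra1-/- (318) were 199 with only the groups compared, 722 with DESeq2 and 182 (without Il13ra1-/- OXA replicate 2) to 1032 (without its replicate 4) with 1 library left out. Between genotypes under vehicle (10) they were 5 without a filter, 5 with equal totals, 3 without a trend, 46 with DESeq2 and 3 to 12 with 1 library left out. Other junction genes called numbered 44 in place of 25 in WT and 45 in place of 29 between genotypes under OXA with equal totals. In the interaction they numbered 30 with equal totals, 24 with array weights, 24 with DESeq2 and 9 to 23 with 1 library left out, in place of 14. With Il13ra1-/- OXA replicate 4 left out, 1 junction gene passed in Il13ra1-/- in place of 0. Except as given above, the cause was not tested. Of 52 calls of named junction genes, 20 were lost under at least 1 alternative and 0 reversed. No paired analysis was possible because the codes in the titles differ between the groups and give no shared replicate numbers. Depth limits Cldn3 and Cldn7, with 5 and 166 reads in all libraries.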

Other observations

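Mettl27, whose gene lies 2482 bases from Cldn4 and was chosen after its values were seen, fell with OXA in WT by 2.02 ± 0.32 on the log2 scale (limma, adjusted p = 7.46e-05), from a mean of 120.2 to 29.1 normalized counts, where Cldn4 did not pass. Its means in Il13ra1-/- were 79.1 with vehicle and 47.9 with OXA. Cldn16, which lies 91294 bases from Cldn1, had 9 reads in all, every one of them in replicate 4 of Il13ra1-/- OXA, the library with the most genes detected.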
